A study of Mus musculus with 12 samples.

Results

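A set of 10 genes of the NRF2 response and of glutathione synthesis were described in mouse colon: Nfe2l2, Slc7a11, Gclc, Gclm, Gsr, Gpx2, Gpx4, Txnrd1, Srxn1 and Nqo1. They were taken by symbol from a table of 21899 genes, and 10 of 10 were found and passed the low-count filter with which 14393 genes were tested. The libraries came from colon tissue of 12 mice that drank 2.5% dextran sulfate sodium (DSS) for 7 days, which injures the colon lining. In 6 mice, labelled CKO, Pck1 had been knocked out in epithelial cells of the intestine, and 6 littermates, labelled WT, were the controls. DSS was common to both groups, and mice without it were not analysed here. The sources used here do not give the age, strain, sex or Cre driver of the mice. The tissue was whole colon, so a lower value cannot tell fewer cells of a type from less RNA per cell.

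NRF2, encoded by Nfe2l2, is a transcription factor that is held in the cytosol and marked for degradation by KEAP1 until oxidants or electrophiles modify KEAP1. It then pairs with small MAF proteins and activates genes that carry antioxidant response elements, among them genes that make and use glutathione. Glutathione is built from glutamate, cysteine and glycine, and much of the cysteine enters the cell as cystine. In the intestine these systems meet oxidants from immune cells and from microbes, and the epithelium carries a glutathione peroxidase of its own, GPX2.

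None of the 10 genes differed between genotypes past the threshold over all genes tested, and the pair with the largest differences lay on opposite sides of 0. Slc7a11, the cystine importer, had a mean of 29.8 ± 14.6 CPM (SD, n = 6) in knockout mice against 10.7 ± 4.18 CPM in controls (n = 6), where CPM are counts scaled by TMM to a common library size. Nqo1, a quinone reductase and a standard NRF2 target, stood at 17.0 ± 3.98 against 28.4 ± 8.24 CPM. The other 8 had log2 fold changes between -0.26 and 0.18. The count past an edgeR adjusted p of 0.05 was 0 of 10 members, where 0.0556% of all tested genes passed (0.0278% higher and 0.0278% lower). At an unadjusted p under 0.05 in edgeR there were 3 of 10 members, 1 higher and 2 lower, where the share of all tested genes was 22.6% (13.1% higher and 9.48% lower). DESeq2 called 2 of 10, and 10.3% of the genes that passed the edgeR filter and had a DESeq2 adjusted p. The limma voom fit with sample quality weights called 4 of 10 (20.1% of all tested genes). No member had all 6 knockout libraries beyond all 6 control libraries, which was seen for 1.52% of tested genes. The median log2 fold change was 0.09 over the members and -0.03 over all tested genes, and 7 of the 10 were above 0.

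**Figure D1:**
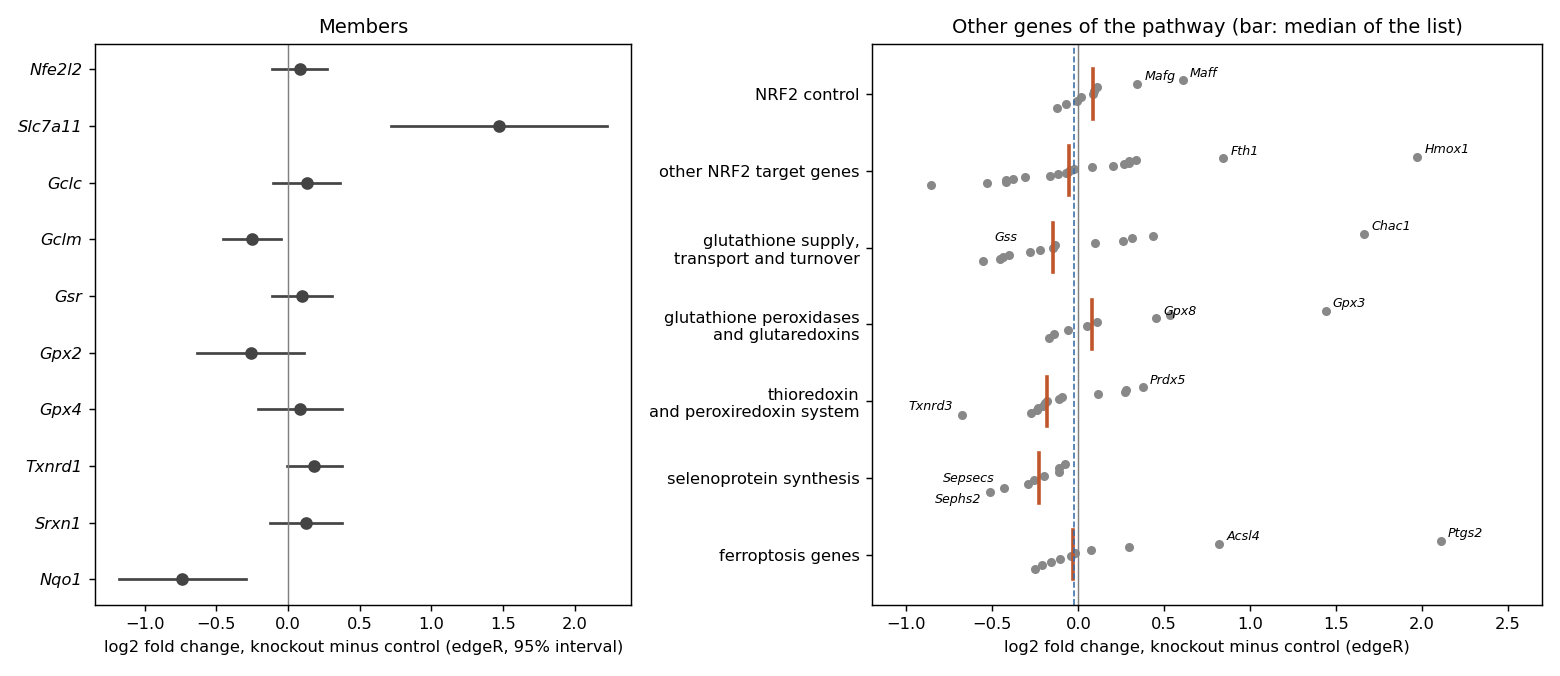
Log2 fold changes, knockout minus control, from edgeR. On the left each member has its 95% interval; on the right each point is 1 gene of a pathway list (heights only separate the points), the bar is the median of the list and the dashed line the median of all tested genes (-0.03). Slc7a11 (1.47) and Nqo1 (-0.74) stand out on opposite sides, while the other members lie between -0.26 and 0.18.

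Library totals ran from 15348192 to 19138507 counts, and member counts from 86 (Slc7a11) to 13662 (Gpx2) in a library, so counting error was small beside the spread between mice. Pck1 was at 2.28 to 7.32 CPM in the knockout libraries and 34.5 to 84.7 CPM in the controls, so it went against none of the 12 labels. Markers of colon epithelium were present in every library, 8 of 8. The libraries numbered 4 lay towards the other genotype on several members (knockout replicate 4 had the most Nqo1 of its group, and control replicate 4 the least Nqo1 and the most Slc7a11). Control replicate 6 held 18019 CPM of 6 exocrine pancreas markers summed, where the other libraries held 30.2 to 1999 CPM. The number of genes called over the whole table depended on those libraries: 8 in all libraries, 1272 without knockout replicate 4, 1007 without control replicate 4, 373 without control replicate 6 and 1911 without both libraries numbered 4. Without any 1 of the other 9 libraries it was 2 or 3. The labels give each library its own number and do not say that a number marks a shared litter or day, so p-values measure the spread between these libraries.

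Levels were compared between genes on the deposited TPM, which corrects for gene length. Gpx2 was the highest, with a mean of 1163 ± 264 TPM in the control and 1018 ± 284 TPM in the knockout (SD, n = 6). Gpx4 followed at a mean of 283 TPM over the 12 libraries, then Txnrd1 at 193, Nfe2l2 at 142, Srxn1 at 109, Gsr at 101, Gclm at 69.8, Gclc at 39.3, Nqo1 at 26.8 and Slc7a11 at 4.20 TPM. Gpx2 lay above Gpx4, Gpx4 above Txnrd1, Gclm above Gclc and Nqo1 above Slc7a11 in 12 of 12 libraries, with ranges that did not overlap in either genotype. Srxn1 and Gsr were not set apart by their spread: Srxn1 was the higher in 9 of 12 libraries and the ranges overlapped in both genotypes. The ranges of Txnrd1 and Nfe2l2, and of Nfe2l2 and Srxn1, overlapped in the knockout only, those of Gsr and Gclm and of Gclc and Nqo1 in the control only.

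**Figure D2:**
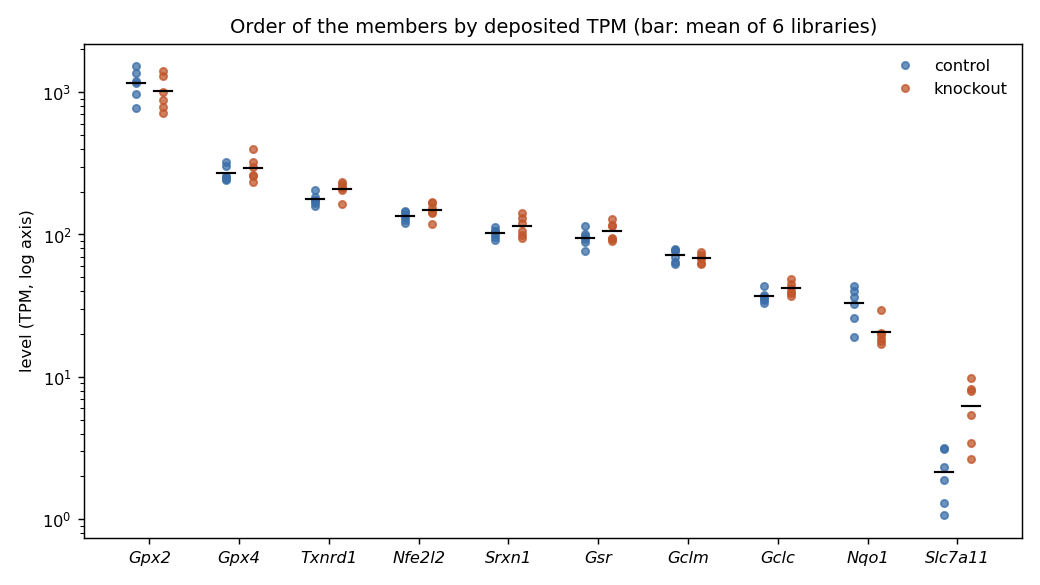
Deposited TPM of each member on a log axis, ordered by the mean over 12 libraries. Points are single libraries and bars are means of 6. Gpx2 heads the order in both genotypes (1163 and 1018 TPM) and Slc7a11 ends it (2.15 TPM in the control, 6.25 TPM in the knockout).

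Nfe2l2, the gene of the factor itself, was at 172, 187 and 226 CPM (lowest, median, highest) in the knockout and at 165, 184 and 199 CPM in the control, and the groups overlapped, with knockout replicates 1 and 4 (219.7 and 226 CPM) above every control. Its log2 fold change was 0.08 ± 0.09 (SE), with a 95% interval from -0.11 to 0.27 and an edgeR adjusted p of 0.64. NRF2 is controlled largely by protein turnover, which RNA levels do not measure. Of 9 genes that control NRF2, 0 passed in edgeR (median 0.09). The share of all tested genes with an unadjusted p under 0.05 was 22.6%, and here it was 2 of 9 (22.2%), both higher. These were the small MAF genes Mafg (0.34 ± 0.10, log2 fold change and SE, edgeR adjusted p = 0.0712) and Maff (0.61 ± 0.18, adjusted p = 0.0789), whose proteins are partners of NRF2 on DNA. Mafg reached from 26.5 to 36.2 CPM in the knockout and was at most 27.7 CPM in a control, with only knockout replicate 4 inside the control range. Keap1, the repressor, stood at 52.7 CPM in the knockout against 55.4 CPM in the control, and Bach1, a repressor that competes for the same elements, at 83.1 and 83.5 CPM (both chosen after their values were seen).

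Slc7a11 encodes xCT, the light chain of the exchanger that takes up cystine and gives out glutamate. Its level was 12.5, 28.1 and 48.4 CPM (lowest, median, highest) in the knockout and 5.30, 10.8 and 15.6 CPM in the control. Knockout replicates 1, 2 and 3 at 48.4, 31.4 and 44.7 CPM and replicate 6 at 24.7 CPM lay above every control, and replicate 4 at 17.1 CPM just above the highest control, replicate 4 (15.6 CPM). Knockout replicate 5, at 12.5 CPM, lay inside the control range, so the groups overlapped by 1 library. The knockout was 2.77-fold the control in the fit, with a log2 fold change of 1.47 ± 0.35 (SE), a 95% interval from 0.72 to 2.22 and an edgeR adjusted p of 0.0559, just short of the threshold. Its edgeR adjusted p was 0.0272 without knockout replicate 4 (where 8.8% of all tested genes passed), 0.0282 without control replicate 4 (6.96%), 0.0497 without control replicate 6 (2.58%) and 0.0142 without both libraries numbered 4 (13.3%). Control replicates 4 and 6 lay above the control median, and knockout replicate 4 below the knockout median. Leaving them out therefore widens the difference by itself and is no separate support for it. Without any 1 of the other 9 libraries the edgeR adjusted p was 0.0571 to 0.134. In the authors' deposited table its FDR was 0.00178, where 6.35% of the genes in that table were under 0.05 (4.65% higher and 1.7% lower). The deposited p-values of 10 of 10 members equal those of the DESeq2 Wald test run here within a relative tolerance of 1e-06, so the authors' deposited FDR is no result apart from the DESeq2 calls. Slc3a2, the heavy chain that carries xCT to the membrane, stood at 82.7 CPM in the knockout against 61.2 CPM in the control (0.43 ± 0.13, edgeR adjusted p = 0.0840, chosen after its values were seen).

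Neutrophil markers moved with Slc7a11. The 9 markers summed to 640, 1187 and 1276 CPM in knockout replicates 1, 2 and 3, and to 262, 277 and 297 CPM in knockout replicates 4, 5 and 6. Control replicate 4, the control with the most Slc7a11, held 581 CPM, and the other controls 133 to 251 CPM. Of the 9 markers 7 were above 0 in every library, and of the granule protein genes Ngp was at 0 in control replicate 1 and Camp in control replicate 3. The 8 monocyte and macrophage markers summed to 1025 to 1933 CPM in the knockout against 735 to 1305 CPM in the control. That sum did not split the knockout libraries so, with replicate 6 (1524 CPM) above replicates 1 and 3 (1382 and 1306 CPM). Markers of some other cell types were also higher in knockout replicates 1, 2 and 3. Enteric neuron and glia markers summed to 211, 269 and 249 CPM there, against 124 to 173 CPM in replicates 4 to 6. Endothelial markers summed to 277, 470 and 347 CPM, against 227 to 273 CPM. Fibroblast markers summed to 5523, 9775 and 5879 CPM, against 4073 to 5101 CPM. Among controls each of the enteric, endothelial and fibroblast sums was highest in replicates 4 and 6. Knockout replicate 6 had 24.7 CPM of Slc7a11 with 297 CPM of neutrophil markers, and control replicate 4 had 15.6 CPM of Slc7a11 with 581 CPM, so the order of the libraries was not the same throughout. The part of any of these cell types in the Slc7a11 difference was not tested.

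The promoter windows of RefSeq (GRCm38.p6) run from 250 bases before a gene's start to 50 after it, and 8 of the 10 members had 1 or more, 13 windows in all. The amino acid response element TGATGCAAA, to which ATF4 binds in genes of the response to amino acid shortage, was found on either strand in 0.271% of 32851 windows. Among the members it was found in the Slc7a11 window only, where it stood at positions -66 to -58 on the forward strand and -48 to -40 on the reverse strand. The antioxidant response element was searched as TGACNNNGC (12.4% of all windows) and TGAGNNNGC (17.6%), and the AP-1 site, which can overlap it, as TGACTCA (5.2%). Srxn1, whose window held the most matches, had AP-1 matches at -102 to -96 and at -45 to -39, the second inside a TGAGNNNGC match at -45 to -37. It also had a TGAGNNNGC match at -158 to -150, and a TGACNNNGC match at 28 to 36, past the start and outside the bases shown. The Slc7a11 window held a TGAGNNNGC match at -97 to -89. The windows of Nfe2l2 and Gclm and 1 of those of Txnrd1 also held a TGACNNNGC match. Those of Nqo1, Gpx2 and Gpx4 held none of the 4 motifs, which says only that these letters are not in those windows. A match is a description of the letters, not evidence that a factor binds there. The 250 bases before the start are shown for Slc7a11 (chr3:50443614-50443863, minus strand), the member with the largest difference, and for Srxn1 (chr2:152105274-152105523, plus strand), the member with the most matches, in capitals where a motif matched.
Slc7a11: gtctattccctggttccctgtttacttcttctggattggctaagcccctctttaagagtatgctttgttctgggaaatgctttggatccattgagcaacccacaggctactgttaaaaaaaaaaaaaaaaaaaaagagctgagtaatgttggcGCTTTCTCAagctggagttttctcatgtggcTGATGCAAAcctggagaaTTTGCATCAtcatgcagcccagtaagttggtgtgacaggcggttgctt
Srxn1: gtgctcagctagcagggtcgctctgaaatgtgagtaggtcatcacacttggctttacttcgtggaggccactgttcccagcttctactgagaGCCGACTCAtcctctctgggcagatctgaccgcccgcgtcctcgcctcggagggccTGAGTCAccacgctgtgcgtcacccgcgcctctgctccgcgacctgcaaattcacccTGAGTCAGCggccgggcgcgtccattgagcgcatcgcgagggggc

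Gclc and Gclm encode the catalytic and the modifier subunit of glutamate-cysteine ligase, the rate-limiting enzyme of glutathione synthesis. Gclc was at 66.4, 71.1 and 98.3 CPM (lowest, median, highest) in the knockout and 60.1, 67.7 and 81.8 CPM in the control, with knockout replicates 3 and 4 above every control. Gclm lay the other way, at 59.8, 61.3 and 77.7 CPM in the knockout against 65.6, 78.8 and 86.8 CPM in the control. In 4 knockout libraries Gclm was below every control, and replicates 3 and 4 were inside the control range. The log2 fold change was 0.13 ± 0.11 (SE) for Gclc and -0.25 ± 0.10 for Gclm, with edgeR adjusted p values of 0.52 and 0.14. Without both libraries numbered 4, Gclm stood at -0.32 with an edgeR adjusted p of 0.0534. Control replicate 4 held the least Gclm of the controls, and knockout replicate 4 lay above the knockout median. Leaving them out therefore widens that difference by itself.

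The ratio of Gclc to Gclm counts within a library does not depend on scaling. It was 1.11 to 1.26 in the knockout and 0.785 to 0.943 in the control, with means of 1.16 ± 0.0653 and 0.897 ± 0.0574 (SD, n = 6), so each knockout library was above each control library. On the deposited TPM the same ratio was 0.545 to 0.773 in the knockout and 0.455 to 0.571 in the control, so there the groups overlapped. The ratio was chosen after the values of both genes were seen and has no test. The authors' deposited log2 fold change of Gclm was -0.07, 0.18 above edgeR's, whereas for the other 9 members the deposited value was 0.04 to 0.07 above edgeR's. So the difference in Gclm was smaller on TPM than on counts, and the cause was not tested.

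**Figure D3:**
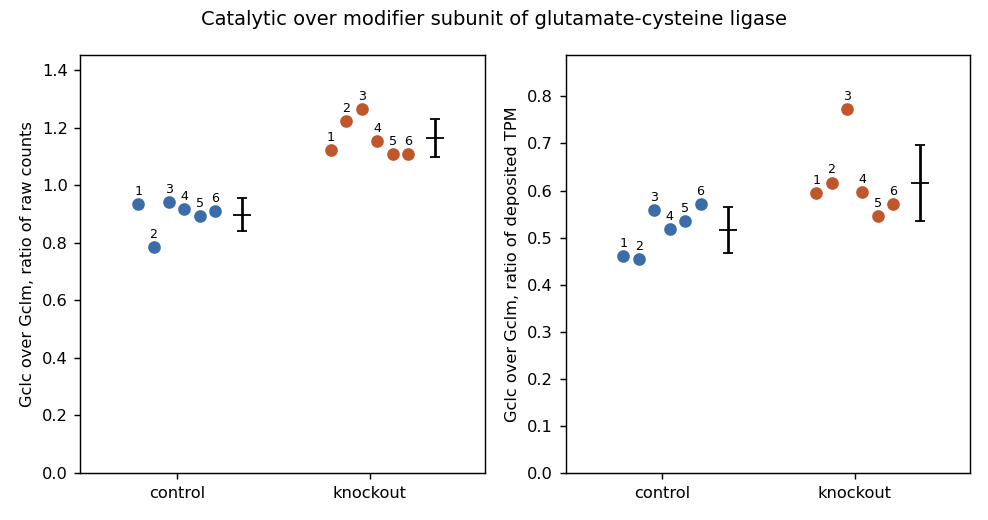
Gclc over Gclm in each library, from raw counts (left) and from deposited TPM (right), with replicate numbers beside the points and mean ± SD of 6 libraries. The counts separate the genotypes (0.785 to 0.943 in the control, 1.11 to 1.26 in the knockout), while the TPM ratios overlap.

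Of 13 genes of glutathione supply, transport and turnover 0 passed in edgeR (median -0.15). At an unadjusted p under 0.05 there were 2 higher and 4 lower (46.2%, where it was 22.6% of all tested genes). Chac1, which degrades glutathione inside the cell, had the smallest p (1.66 ± 0.50, log2 fold change and SE, edgeR adjusted p = 0.0782). It was at low levels, 1.68 to 16.8 CPM in the knockout against 1.22 to 2.89 CPM in the control, and knockout replicate 3 was the highest. Gss, the glutathione synthetase of the second step, was at 78.4 to 114 CPM in the knockout against 96.2 to 163 CPM in the control (-0.44 ± 0.13, edgeR adjusted p = 0.0813). Control replicate 4 (96.2 CPM) and control replicate 6 (101 CPM) were the controls inside the knockout range. Cbs (-0.55 ± 0.20) and Cth (-0.45 ± 0.19), which make cysteine from methionine's sulfur, were lower in mean with edgeR adjusted p values of 0.13 and 0.17 (chosen after their values were seen).

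Gsr, the reductase that returns oxidised glutathione to its reduced form, was at 131, 151 and 175 CPM (lowest, median, highest) in the knockout and 119, 138 and 165 CPM in the control. Its log2 fold change was 0.10 ± 0.10 (SE; 95% interval -0.11 to 0.31, edgeR adjusted p = 0.60).

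Gpx2, the glutathione peroxidase of intestinal epithelium, varied widely within each genotype. It was at 406, 513 and 708 CPM in the knockout against 457, 644 and 827 CPM in the control. Knockout replicates 2 and 3, the 2 libraries with the most neutrophil marker RNA, held the least Gpx2 (406 and 427 CPM), whereas knockout replicates 5 and 6 (676 and 708 CPM) lay above 4 controls. The controls did not follow that order. Control replicate 5 had the least neutrophil marker RNA of all libraries (133 CPM) and the least Gpx2 of the controls (457 CPM). Control replicate 4 had the most of the controls (581 CPM) with 623 CPM of Gpx2. The log2 fold change of Gpx2 was -0.26 ± 0.17 (SE), with a 95% interval from -0.63 to 0.11 and an edgeR adjusted p of 0.40. The 8 epithelial markers summed to 7483 to 8348 CPM in the knockout against 7808 to 10734 CPM in the control, and their part in the Gpx2 values was not tested.

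Gpx4, the peroxidase that reduces lipid hydroperoxides in membranes and restrains ferroptosis, was at 110, 130 and 181 CPM in the knockout against 118, 125 and 156 CPM in the control. Knockout replicates 2 and 3 were above every control and replicates 1, 5 and 6 below every control, so the knockout mice lay on both sides of the control range. Its log2 fold change was 0.08 ± 0.14 (SE; 95% interval -0.21 to 0.38, edgeR adjusted p = 0.77), and its sign turned without knockout replicate 2 (-0.01) and in limma voom with sample quality weights (-0.11).

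Of 8 other glutathione peroxidases and glutaredoxins 0 passed in edgeR (median 0.08). At an unadjusted p under 0.05 there were 3, all higher (37.5%, where it was 22.6% of all tested genes). Gpx3, the secreted peroxidase, was at 404 ± 238 CPM in the knockout against 149 ± 49.6 CPM in controls (SD, n = 6; 1.44 ± 0.34, edgeR adjusted p = 0.0569). It was highest in knockout replicates 2 and 3 (780 and 616 CPM), and knockout replicates 5 and 6 (229 and 188 CPM) lay below control replicate 4 (235 CPM). Gpx8, a peroxidase of the endoplasmic reticulum, stood at 0.45 ± 0.18 (edgeR adjusted p = 0.15). The 6 fibroblast markers summed to 4073 to 9775 CPM in the knockout, the highest in replicate 2, and to 2492 to 5045 CPM in the control. They did not follow Gpx3 in every library: knockout replicate 4 had the lowest fibroblast sum of its group (4073 CPM) with more Gpx3 (291 CPM) than replicates 5 and 6, and control replicate 6 had the highest of the controls (5045 CPM) with less Gpx3 (176 CPM) than control replicate 4. The neutrophil markers given above were, like Gpx3, highest in knockout replicates 2 and 3 and, among controls, in replicate 4. Nor did they follow Gpx3 in every library. Knockout replicate 4 had the lowest neutrophil sum of its group (262 CPM) with more Gpx3 than replicates 5 and 6. The part of either cell type in the Gpx3 values was not tested.

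Txnrd1, the cytosolic thioredoxin reductase, was at 264, 341 and 364 CPM (lowest, median, highest) in the knockout and 275, 285 and 326 CPM in the control. Knockout replicate 4, at 264 CPM, was below every control, and control replicate 1, at 326 CPM, was the only control above 293 CPM. The 4 lowest controls lay between 275 and 291 CPM, below 5 of 6 knockout libraries. Its log2 fold change was 0.18 ± 0.09 (SE; 95% interval -0.01 to 0.37, edgeR adjusted p = 0.24), and without knockout replicate 4 it was 0.24 (edgeR adjusted p = 0.0579). Srxn1, the sulfiredoxin that repairs overoxidised peroxiredoxins, was at 132, 166 and 217 CPM in the knockout against 142, 157 and 173 CPM in the control. Knockout replicates 2 and 3 (205 and 217 CPM) lay above every control and replicate 6 (132 CPM) below every control, so the knockout spread on both sides. Its log2 fold change was 0.13 ± 0.12 (SE; 95% interval -0.12 to 0.38, edgeR adjusted p = 0.57).

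Of 13 other genes of the thioredoxin and peroxiredoxin system 0 passed in edgeR (median -0.18). At an unadjusted p under 0.05 there were 1 higher and 4 lower (38.5%, where it was 22.6% of all tested genes). Prdx5, a peroxiredoxin of mitochondria, peroxisomes and cytosol, was at 187 to 274 CPM in the knockout against 161 to 188 CPM in the control (0.37 ± 0.10, log2 fold change and SE, edgeR adjusted p = 0.0670). Txnrd3, a reductase best known from testis, was at low levels, 3.92 to 7.48 CPM in the knockout against 6.39 to 10.7 CPM in the control (-0.68 ± 0.19, edgeR adjusted p = 0.0685). Txn1, the cytosolic thioredoxin that Txnrd1 reduces, stood at 627 CPM in the knockout against 742 CPM in the control (-0.24 ± 0.11, edgeR adjusted p = 0.20, chosen after its values were seen).

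TXNRD1, GPX2 and GPX4 are selenoproteins, which need a dedicated machinery to insert selenocysteine. Of 8 genes of selenoprotein synthesis and selenium supply 0 passed in edgeR. At an unadjusted p under 0.05 there were 2, both lower (25%, where it was 22.6% of all tested genes). The log2 fold change was below 0 in 8 of 8 (median -0.23), where 45.1% of all tested genes were above 0. Sephs2, which makes the selenium donor, was at 53.0 to 68.3 CPM in the knockout against 64.3 to 94.0 CPM in the control (-0.51 ± 0.10, edgeR adjusted p = 0.0512). Sepsecs, which completes selenocysteine on its tRNA, was at 19.8 to 30.1 CPM in the knockout against 30.4 to 38.9 CPM in the control (-0.43 ± 0.11, edgeR adjusted p = 0.0580), with no overlap between the groups. Markers lay the same way in 6 of 6 for goblet cells, 5 of 5 for smooth muscle and 6 of 6 for exocrine pancreas. For epithelium it was 6 of 8 and for colonocytes 3 of 5. Sephs2 was highest of the knockout in replicate 4 (68.3 CPM) and lowest of the controls in replicate 4 (64.3 CPM). The goblet and smooth muscle marker sums were so too. The part of these cells in the selenoprotein genes was not tested. The 3 members of this kind stood at 0.18 (Txnrd1), -0.26 (Gpx2) and 0.08 (Gpx4).

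Nqo1 was at 14.2, 15.8 and 25.0 CPM (lowest, median, highest) in the knockout and 15.7, 29.2 and 37.0 CPM in the control. The groups overlapped. Knockout replicate 4, at 25.0 CPM, lay above control replicates 4 and 6 (15.7 and 22.7 CPM), while the other 5 knockout libraries held 14.2 to 16.3 CPM, and the other 5 controls 22.7 to 37.0 CPM. The knockout mean was 60.0% of the control mean, with a log2 fold change of -0.74 ± 0.20 (SE), a 95% interval from -1.18 to -0.30 and an edgeR adjusted p of 0.0676. The edgeR adjusted p was 0.0272 without knockout replicate 4 (where 8.8% of all tested genes passed), 0.0187 without control replicate 4 (6.96%), and 0.00363 without both (13.3%). Knockout replicate 4 held the most Nqo1 of its group and control replicate 4 the least. Leaving them out therefore widens the difference by itself and is no separate support for it. Without any 1 of the other 10 libraries the edgeR adjusted p was 0.0555 to 0.156. In the authors' deposited table the FDR of Nqo1 was 0.0176, from the same p-value as DESeq2's.

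Goblet cell and smooth muscle markers moved with Nqo1 in the libraries numbered 4. The 6 goblet markers summed to 16061 CPM in knockout replicate 4 and 9935 to 13023 CPM in the other knockout libraries, and to 11804 CPM in control replicate 4 and 15382 to 19058 CPM in the other controls. All 6 were above 0 in every library, and 6 of 6 had a log2 fold change below 0. The 5 smooth muscle markers summed to 2508 CPM in knockout replicate 4 and 1607 to 2192 CPM in the other knockout libraries. In control replicate 4 they summed to 1613 CPM, and in the other controls to 2065 to 3526 CPM. Of these 5 markers, 5 had a log2 fold change below 0. The order of the other libraries was not the same for either list. Control replicate 6 had 22.7 CPM of Nqo1 with 16572 CPM of goblet markers, and control replicate 3 had 37.0 CPM with 15382 CPM. Knockout replicate 1 had the least Nqo1 of its group (14.2 CPM) with 13023 CPM of goblet markers. Control replicate 3, the control with the most Nqo1, had 2137 CPM of smooth muscle markers, less than control replicate 1 (2921 CPM). The part of goblet or smooth muscle cells in the Nqo1 values was not tested.

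**Figure D4:**
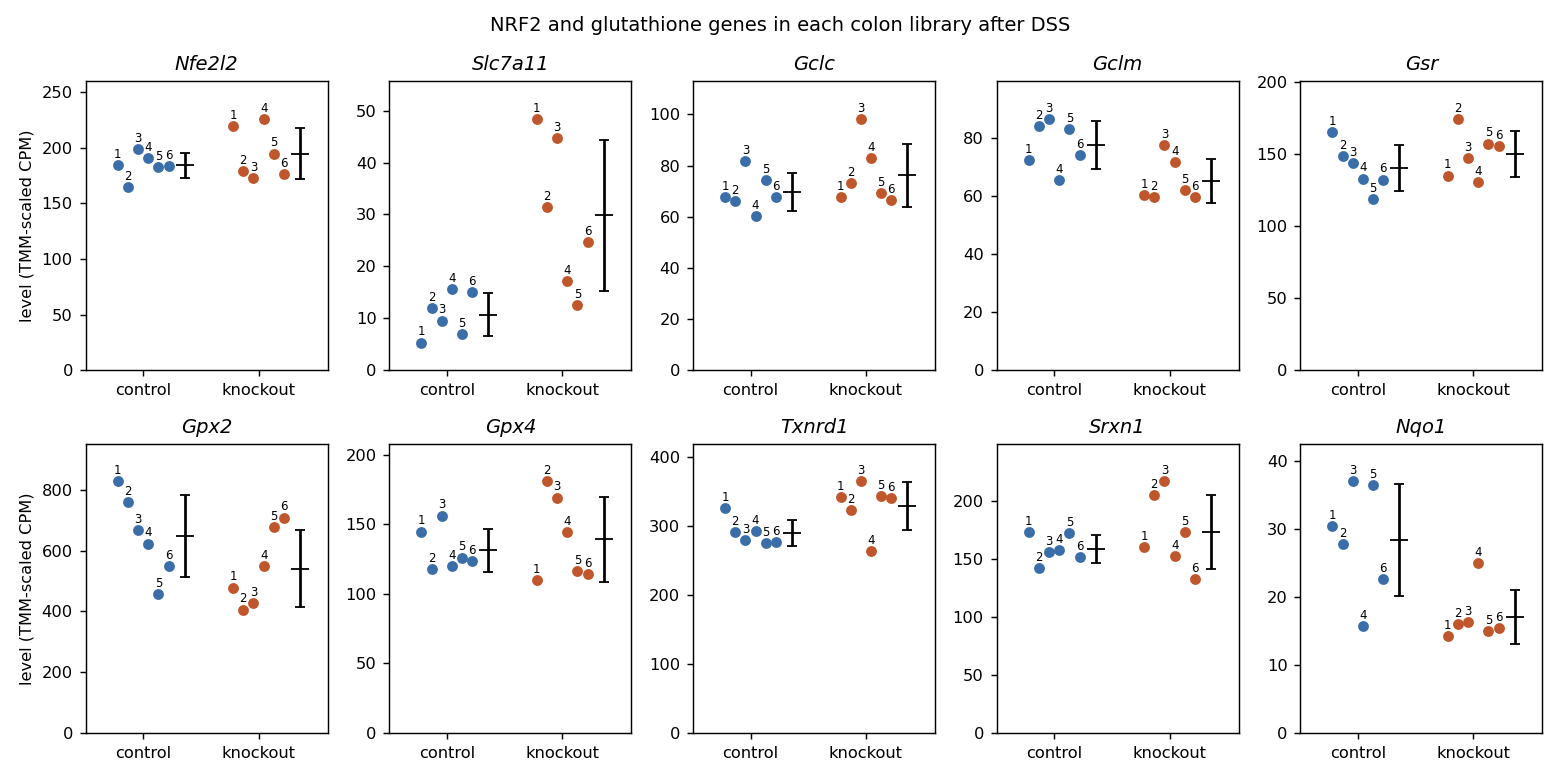
TMM-scaled CPM of the 10 members in each library, on axes that start at 0, with the mean and SD of 6 libraries per genotype. Slc7a11 is higher in 5 of 6 knockout libraries than in any control, and Nqo1 of knockout replicate 4 (25.0 CPM) stands above the rest of its group.

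Of 21 other NRF2 target genes 20 were tested and 0 passed in edgeR (median -0.06). At an unadjusted p under 0.05 there were 3 higher and 4 lower (35%, where it was 22.6% of all tested genes). Hmox1, the haem oxygenase that also responds to haem and is made by macrophages, was at 45.1 to 129 CPM in the knockout against 13.2 to 31.5 CPM in the control, with no overlap (1.97 ± 0.33, log2 fold change and SE, edgeR adjusted p = 0.0512). Knockout replicates 2 and 3 held the most Hmox1, at 127 and 129 CPM, and the most neutrophil marker RNA, and control replicate 4 was the highest control on both. Fth1, the ferritin heavy chain that stores iron, stood at 2809 ± 967 against 1567 ± 219 CPM (SD, n = 6; 0.84 ± 0.20, edgeR adjusted p = 0.0542). Genes that supply NADPH, on which the reductases depend, lay on both sides of 0. G6pdx was at 84.6 against 86.1 CPM, Pgd at 288.6 against 298.5 CPM, Idh1 at 208 against 271 CPM and Me1 at 28.7 against 23.4 CPM in knockout and control (edgeR adjusted p = 0.92, 0.81, 0.0754 and 0.36, chosen after their values were seen). Of 10 ferroptosis genes 0 passed in edgeR (median -0.03). The share of all tested genes with an unadjusted p under 0.05 was 22.6%, and here it was 3 of 10 (30%), all higher. These included Ptgs2, which makes prostaglandins (140 against 32.5 CPM, 2.11 ± 0.59, edgeR adjusted p = 0.0685), and Acsl4, which loads membranes with polyunsaturated fatty acids (73.4 against 41.6 CPM, 0.82 ± 0.24, edgeR adjusted p = 0.0784).

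Within genotypes the members did not vary as 1 block. After the genotype mean was removed, Pearson's r of log2 CPM over the 12 libraries ran from -0.58 (Srxn1 with Gpx2) to 0.88 (Gclc with Gclm) over 45 pairs, with a median of -0.02 and 20 pairs above 0. Thus the subunits of glutamate-cysteine ligase varied together between mice of a genotype, although their means lay on opposite sides. By the same measure over all genes, the most alike were Cox6a1 (0.96) for Nqo1, Tceal8 (0.90) for Slc7a11, Pgrmc1 (0.94) for Gclc and Chmp3 (0.95) for Gclm. For other members they were Sdr39u1 (0.95) for Gsr, Gins2 (0.93) for Gpx2, Paqr8 (0.96) for Gpx4 and Ppp1r13l (0.90) for Nfe2l2. For Txnrd1 they were Duoxa2 (0.90) and Duox2 (0.89), the maturation factor of an epithelial dual oxidase and the oxidase itself. These values describe 12 libraries that share their tissue makeup and were the highest of 11429 genes compared.

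**Figure D5:**
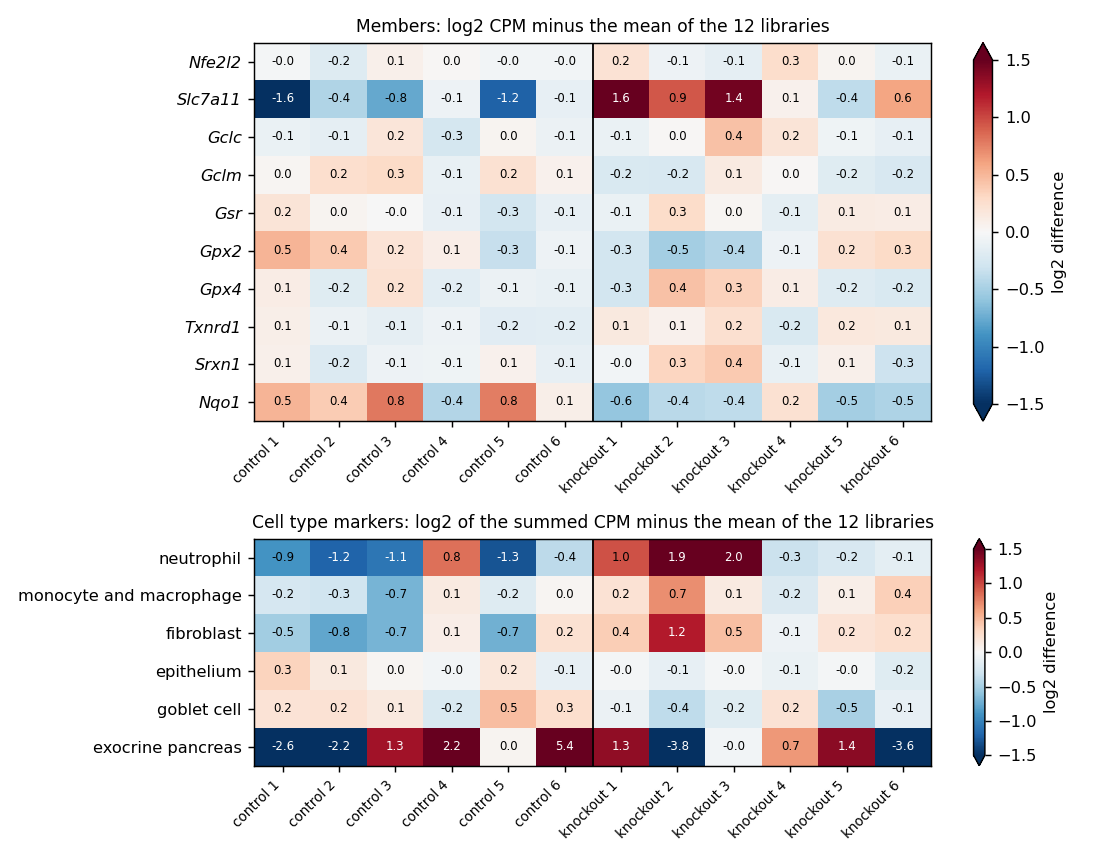
Log2 difference of each library from the mean of 12 libraries for the members (CPM) and for the summed CPM of 6 cell type marker lists, with colours ending at ±1.5. Slc7a11 and the neutrophil markers are high in knockout replicates 1, 2 and 3, and Nqo1 and the goblet markers are higher in knockout replicate 4 than in control replicate 4.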

How the data were processed

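RNA-seq of colon from 12 mice, 6 CKO and 6 WT, was used, and groups came from the labels. Per the labels' protocols, RNA was extracted with Trizol and libraries made with a SMARTER kit. Per the submitters' processing notes, the builds GRCm38, mm10 and mm39 were involved; no aligner or counter is named (not given in the sources used here). The authors deposited 1 table of 21899 genes with raw counts, TPM (scaled by the authors for length and depth), a log2 ratio of mean TPM, and a p-value and FDR per gene from a test they do not name, whose p-values for 10 of 10 members equal those of DESeq2 run here (relative tolerance 1e-06).

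Counts were tested with edgeR 4.0.16 in R 4.3.3: filterByExpr (minimum count 10, minimum total 15), TMM scaling, the quasi-likelihood F test of knockout minus control, and Benjamini-Hochberg adjustment over 14393 genes at 0.05. The SE is the size of the fold change over the square root of F. Library totals ran from 15348192 to 19138507 counts, and member counts were at least 86. The procedure was tested on simulated data with less spread between libraries than these, and with larger changes than most members had. So that test does not give its power or error rate here. No libraries were alike within counting noise (lowest chi-square per gene 19.56 over 66 combinations).

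The members, 7 pathway lists (82 genes) and 10 marker lists (64 genes) were chosen with earlier results of these data known. Named were all members, Pck1, the 2 genes with the smallest p of each pathway list where none passed, and the genes most like a member (mean CPM of at least 5, prior count 2); others are said to be chosen after their values were seen. The gene most like Srxn1 is not reported here. Alternatives were other scalings and filters, DESeq2 1.42.0, limma 3.58.1 (voom with sample quality weights, and trend on log2(TPM + 1)), the replicate number in the model, and libraries left out. Promoter sequences are RefSeq's (GRCm38.p6).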

Additional observations from a re-analysis of the deposited data

Results flagged for a closer look

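In each group of 6 libraries the gap of the highest and of the lowest value to its neighbour was set against the range of the group, with Dixon's 95% limit of 0.625. Of the 20 groups (10 genes in 2 genotypes), 2 had a library beyond it, and chance gives about 1 in 20 groups. Nqo1 of knockout replicate 4 was the highest of its group at 25.0 CPM, where the other 5 knockout libraries held 14.2 to 16.3 CPM. Txnrd1 of control replicate 1 was the highest of its group at 326 CPM, where the other 5 controls held 275 to 293 CPM.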

How the results depend on the processing

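Over 22 alternatives the members kept their sign, except Gpx4, which stood at -0.11 with limma voom and sample quality weights and at -0.0056 without knockout replicate 2 (-0.0056 to 0.14 leaving out 1 library). The members' median ran from 0.02 to 0.15. The count of members past the threshold (0 in edgeR) was 1 with library size only, 2 with DESeq2, 4 with limma voom and weights, 1 with limma on TPM, 2 without both libraries numbered 4, and 0 to 2 leaving out 1 library. Over all genes (8 in edgeR, 4 higher and 4 lower) the count was 52 with DESeq2's size factors (33 higher, 19 lower), 275 with library size only (230 and 45), 1475 with DESeq2 (1070 and 405), 2888 with voom (1549 and 1339), 403 on TPM (355 and 48), 1911 without both libraries numbered 4, and 2 to 1272 leaving out 1 library. Members whose groups did not overlap (0) numbered 2 without both libraries numbered 4 (Nqo1, Txnrd1) and 0 to 1 leaving out 1 library (Txnrd1 without knockout replicate 4 and Slc7a11 without knockout replicate 5, on values rescaled to the libraries kept). The share of all tested genes without overlap (1.52%) was counted in all 12 libraries only. Groups separate more easily with fewer libraries, so the counts with libraries left out have no share to be read against. With the replicate number as a block 0 members and 1 gene passed (edgeR adjusted p = 0.26 for Slc7a11 and 0.27 for Nqo1). No pairing by number was seen: correlations of same-numbered libraries ran from -0.50 to 0.08, and 0 libraries correlated best with their own number. These correlations cover all tested genes after the genotype mean was removed. Large differences between mice could hide a weaker effect of a shared litter or day, so pairing is not excluded. Where the count differs, the cause was not tested. With 6 mice a group and spreads of this size, the intervals of 7 of the 10 members include 0 and do not show that the genotypes are alike.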
